A study of Homo sapiens with 24 samples.

Results

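Retrotransposon-derived Gag genes are cellular genes whose coding sequence descends from the gag gene of an ancient LTR retrotransposon. 10 of the 43037 genes in the deposited table were examined, PEG10, RTL5, RTL6, RTL8A, RTL8C, RTL10, PNMA1, PNMA2, PNMA8A, and ARC, found by matching the Ensembl identifiers of the table to these symbols. The set was drawn up with results of these libraries known. The rises in “WWOX” of PEG10 in T98G and RTL5 in U251MG are taken as values in view at that time. So are those of PNMA2, a gene the study itself discusses. The values of T98G and U251MG, and those of PNMA2 in all lines, are therefore given as a description that supports nothing.

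Gag is the protein that builds the capsid shell of retroviruses and LTR retrotransposons. In mammals, copies of it were retained as host genes in separate families, of which the RTL family (PEG10 included) and the PNMA family are the largest, while ARC arose from a related element on its own. Several of the encoded proteins can still assemble into capsid-like particles, and ARC and PEG10 can carry RNA inside them. PEG10 is imprinted and expressed from the paternal copy, it keeps the Gag and Pol reading frames joined by a ribosomal frameshift, and it is required for the placenta. Most PNMA genes are best known from neurons, where some of their proteins are targets of autoantibodies in paraneoplastic syndromes.

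CAGE-Seq, which sequences the capped 5′ ends of transcripts, had been performed on 4 established glioblastoma lines (DBTRG-05MG, T98G, U251MG, and U87MG). Every line was stably transduced with the WWOX lentivirus (GIPZ system, vector pLenti-GIII-CMV-GFP-2A-Puro, so that the CMV promoter drives the transgene) to give “WWOX”, or with Puro-Blank Lentivirus to give “Vec”, and all cells of both variants had been selected with puromycin. There were 3 libraries in each of the 8 groups, 24 in all, which the study calls biological triplicates; the labels do not say whether they came from separate transductions, so the p-values measure the spread between these libraries. The libraries held 10756072 to 16953689 tags on genes (median 14584829), and 3 tags, the most that a count of 0 allows, correspond to 0.177 to 0.279 CPM (tags scaled to a library total of 1000000), a limit that covers counting error only.

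Not every library sat with its own group. On scaled log2 values of all genes tested, all 24 libraries were closest to a library of their own line, but 6 of them were closest to the other variant. These were T98G “Vec” replicate 2, U251MG “Vec” replicate 2, all 3 U251MG “WWOX” libraries, and DBTRG-05MG “WWOX” replicate 1. Some values without 1 of them are given below. WWOX itself was uneven in some of the same libraries. It measured 33.9 to 40.1 CPM in U87MG “Vec” and 61.0 to 66.0 CPM in U87MG “WWOX”, and 20.4 to 22.2 against 28.0 to 32.0 CPM in DBTRG-05MG, without overlap. In T98G it measured 34.2, 38.6, and 57.2 CPM in “Vec” and 45.1, 60.0, and 61.8 CPM in “WWOX”, and in U251MG 31.4 to 36.8 CPM in “Vec” and 17.4, 38.0, and 56.7 CPM in “WWOX”, so that groups overlapped in both lines. The library labelled U251MG “WWOX” replicate 2 held the lowest of the U251MG values. Whether transcripts that start at the CMV promoter of the vector were counted under WWOX was not tested. These values are therefore no measure of the transgene, and the study rests the efficiency of transduction on Western blot.

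The lines also differed in some markers of glial tumor cells. Those shown come from a list of 8, which also held NES, OLIG2, S100B, and SLC1A3, whose levels are not given here. OLIG2 was not among the genes tested. CD44, an adhesion receptor of mesenchymal glioblastoma cells, had a mean of 807 to 2880 CPM over the 4 “Vec” groups and VIM (vimentin) 14.9 to 56.4 CPM. GFAP, the astrocyte intermediate filament, reached 2655 CPM in U251MG “Vec” but stayed between 1.99 and 4.34 CPM in “Vec” of the other lines, and SOX2, a factor of neural stem cells, had means of at most 0.36 CPM in U87MG and T98G “Vec” and 47.0 and 98.1 CPM in DBTRG-05MG and U251MG “Vec”. Of 6 markers of other cells, PTPRC and CD68 (immune), PECAM1 (endothelial), EPCAM (epithelial), and RBFOX3 (neuron) had group means of at most 0.61 CPM, and SYP (synaptophysin) of at most 5.62 CPM. In such bulk libraries fewer cells of a type and less RNA per cell cannot be told apart.

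Since CAGE reads begin where transcripts begin, the bases just upstream of annotated starts are shown for some of the genes. The deposited values are totals per gene, so which starts were used in these cells is not known. Promoter windows from RefSeq (GRCh38.p14) were matched for RTL5, RTL6, RTL8A, RTL10, and PNMA8A, 5 of the 10 genes, and for the related RTL8B. The RefSeq start of RTL8A lies inside the gene span given below, which ends at 135052196. The last bases of its window therefore fall within that span. Shown are the 250 bases before the annotated start, 5′ to 3′ on the strand of the gene (minus for all 4), for RTL5 (chrX:72131916-72132165) and PNMA8A (chr19:46471564-46471813), which had larger differences between lines than the other tested genes with a matched window, and for 2 genes present in all libraries, RTL6 (chr22:44498234-44498483) and RTL8A (chrX:135052136-135052385). Capitals mark matches to a GC box (GGGCGG or its reverse complement CCGCCC) or to a CCAAT box (CCAAT or ATTGG).
RTL5: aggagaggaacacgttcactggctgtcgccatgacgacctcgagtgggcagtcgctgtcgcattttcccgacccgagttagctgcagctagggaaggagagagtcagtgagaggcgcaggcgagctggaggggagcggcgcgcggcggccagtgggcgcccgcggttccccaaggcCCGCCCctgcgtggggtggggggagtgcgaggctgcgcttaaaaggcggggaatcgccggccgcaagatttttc
PNMA8A: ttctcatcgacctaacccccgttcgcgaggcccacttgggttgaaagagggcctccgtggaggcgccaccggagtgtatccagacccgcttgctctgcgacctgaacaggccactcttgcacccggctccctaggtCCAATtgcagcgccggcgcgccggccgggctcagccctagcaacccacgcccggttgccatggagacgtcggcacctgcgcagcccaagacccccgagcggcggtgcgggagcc
RTL6: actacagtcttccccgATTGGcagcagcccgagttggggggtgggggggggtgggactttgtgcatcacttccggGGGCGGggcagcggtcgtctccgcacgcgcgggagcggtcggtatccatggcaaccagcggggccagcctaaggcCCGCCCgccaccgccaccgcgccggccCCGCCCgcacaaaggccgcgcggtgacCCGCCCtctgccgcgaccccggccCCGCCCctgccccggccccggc
RTL8A: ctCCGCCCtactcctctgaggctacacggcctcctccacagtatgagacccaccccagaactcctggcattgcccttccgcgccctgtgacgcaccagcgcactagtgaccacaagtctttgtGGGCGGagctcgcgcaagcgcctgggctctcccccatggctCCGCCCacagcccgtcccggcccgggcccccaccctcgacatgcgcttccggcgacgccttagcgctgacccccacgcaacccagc

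CG dinucleotides were more numerous in all 4 windows than in the median window. RTL5 held 26, PNMA8A 25, RTL6 31, and RTL8A 21, against a median of 11 over 35116 promoter windows. In the same order, 80.4%, 78.4%, 89.1%, and 69.8% of all windows held fewer. A GC box, which 42.6% of all windows hold on one strand or the other, was found 5 times in RTL6, 3 times in RTL8A, and once in RTL5, and a CCAAT box (32.0% of windows) in RTL6 and PNMA8A. None of the 4 held TATAAA (10.7%), the cAMP response element TGACGTCA (1.65%), or the YY1 core GCCATNTT (3.86%), searched on both strands. The letters say nothing about which factor binds.

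For the comparisons, libraries were scaled with TMM, the trimmed mean of M-values, and expressed as log2(CPM + 0.5), a scale that understates the change of genes near 0. A limma model with the 8 groups gave log2FC with two-sided adjusted p-values (Benjamini-Hochberg over all genes tested, threshold 0.05). A gene entered the test when any library reached 5 CPM, which held for 12327 genes. 9 of the 10 Gag genes were among them, and the filter is part of the result for some. RTL6, RTL8A, RTL8C, and PNMA1 passed it in all 24 libraries, PNMA2 in 21, PEG10 in 10, and ARC in 8. PNMA8A passed it only in the 6 U251MG libraries, RTL5 in 1 library (U251MG “WWOX” replicate 1), and RTL10 in none. No count over the tested genes is used below as support.

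**Figure D1:**
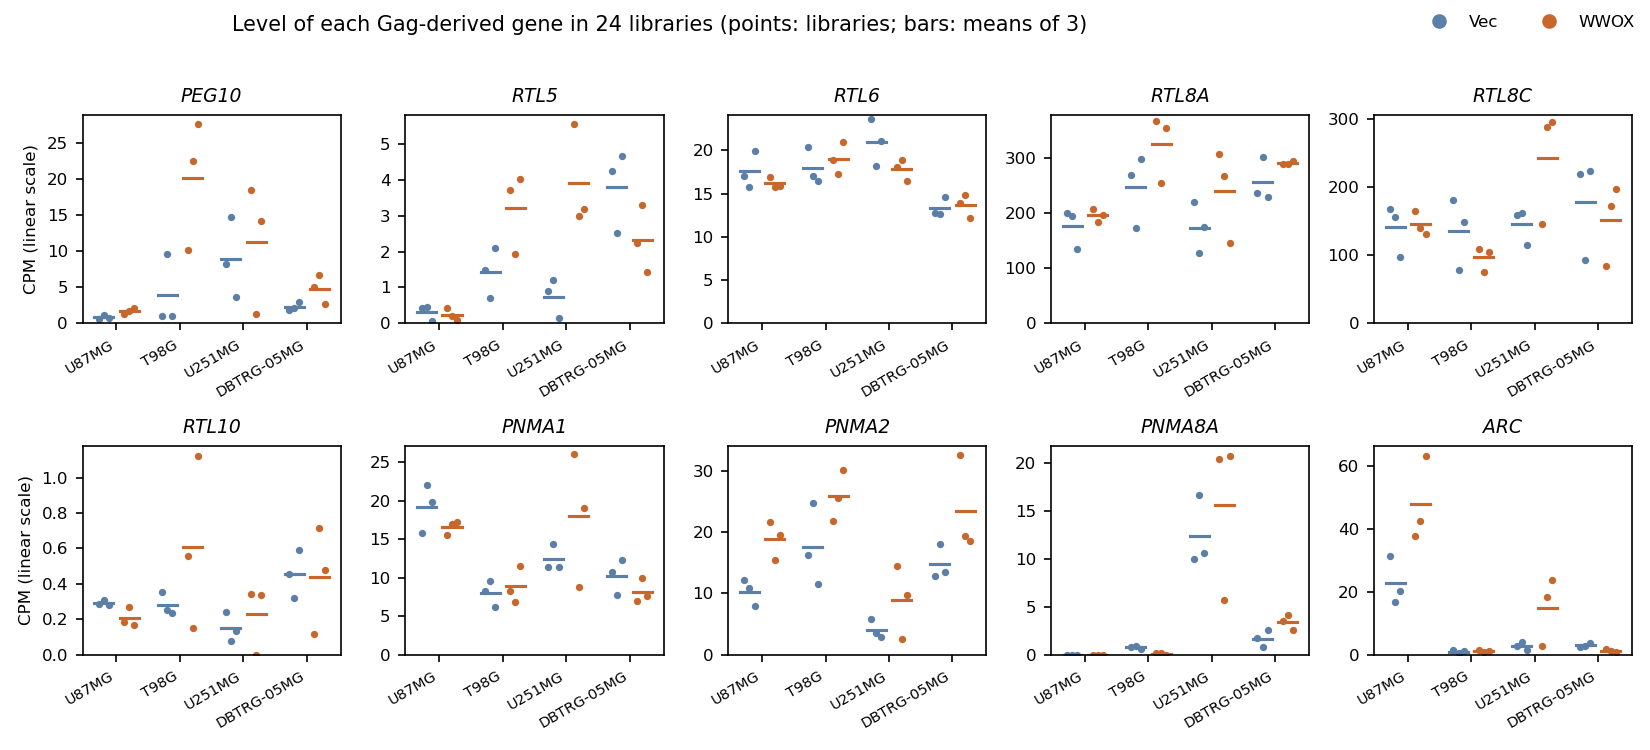
Level of each of the 10 genes in CPM (linear axes, each with its own scale) in the 24 libraries, grouped by line. Points are libraries, bars the mean of 3, blue “Vec” and orange “WWOX”. PEG10 in T98G “Vec” has 1 point at 9.59 CPM beside 2 near 1 CPM, PNMA8A is present mainly in U251MG, and ARC is highest in U87MG.

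PEG10 (ENSG00000242265.6; chromosome 7, 94656325 to 94669695, plus strand) overlaps the neighboring imprinted gene SGCE, which is transcribed in the opposite direction from nearly the same place. In T98G “Vec” it measured 0.984, 9.59, and 1.01 CPM and in T98G “WWOX” 10.1, 22.6, and 27.7 CPM. The groups did not overlap, yet the second “Vec” library lay just under the lowest “WWOX” library, and this is the library that resembled “WWOX” as a whole. The means were 3.86 ± 4.96 and 20.1 ± 9.02 CPM (SD, n = 3), and log2FC was 2.79 with a standard error of 0.66 (limma adjusted p = 0.0392), one of the values taken as in view when the set was chosen. Without T98G “Vec” replicate 2, log2FC was 3.65 (adjusted p = 0.00205), while without “Vec” replicate 1 or 3 it was 2.33 or 2.40 and without “WWOX” replicate 2 or 3 it was 2.65 or 2.53, and in these 4 cases the adjusted p was between 0.130 and 0.299. Libraries of other lines also mattered at the threshold, since leaving out U87MG “Vec” replicate 3, U87MG “WWOX” replicate 2 or 3, U251MG “Vec” replicate 1, or DBTRG-05MG “Vec” replicate 1 or 3 moved the adjusted p to between 0.0502 and 0.0548. The call was also lost in a model of T98G alone (adjusted p = 0.268), with edgeR (adjusted p = 0.123), limma-voom (adjusted p = 0.0662), the replicate number as a block (adjusted p = 0.0947), CPM as deposited (adjusted p = 0.0846), or another filter (adjusted p = 0.0507 and 0.0579), and kept with DESeq2 (adjusted p = 0.0205).

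Outside T98G, PEG10 was not called in any line. In U87MG it measured 0.568, 1.16, and 0.772 CPM in “Vec” and 1.22, 1.63, and 2.12 CPM in “WWOX” (log2FC 0.67, adjusted p = 0.898 from limma). These deposited values do not overlap, but they amount to no more than 25 tags per library. In DBTRG-05MG it measured 1.83, 2.06, and 2.96 CPM in “Vec” and 5.07, 6.74, and 2.60 CPM in “WWOX” (log2FC 0.80, adjusted p = 0.917), where the lowest “WWOX” library lay within the “Vec” range. In U251MG the libraries of the same variant differed from each other more than the variants did, with 8.19, 14.8, and 3.62 CPM in “Vec” and 18.5, 1.29, and 14.2 CPM in “WWOX”. Its log2FC of −0.08 there was 0.80 without “WWOX” replicate 2, −0.64 without “WWOX” replicate 1, −0.43 without “WWOX” replicate 3, and 0.33 without “Vec” replicate 2.

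SGCE, which encodes epsilon-sarcoglycan and is imprinted together with PEG10, followed it in part. Over the 24 libraries the Pearson r of the scaled log2 values was 0.79, a description in which the libraries share lines and in which the strand used in counting is not given in the sources used here. In U251MG “WWOX” SGCE measured 300.2, 59.3, and 199.8 CPM, with the same low library as PEG10. In T98G its mean went from 64.2 CPM in “Vec” to 107.5 CPM in “WWOX” (log2FC 0.76, adjusted p = 0.321 from limma), against 2.79 for PEG10. Of the other genes tested within 500 kb, CASD1 (r = 0.65) and PPP1R9A (r = 0.27) were called in no line, and COL1A2, a collagen chain, fell in U87MG only among the 4 lines (log2FC −1.46, adjusted p = 0.00292). The median log2FC of chromosome 7 genes in T98G exceeded that of all tested genes by 0.10.

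**Figure D2:**
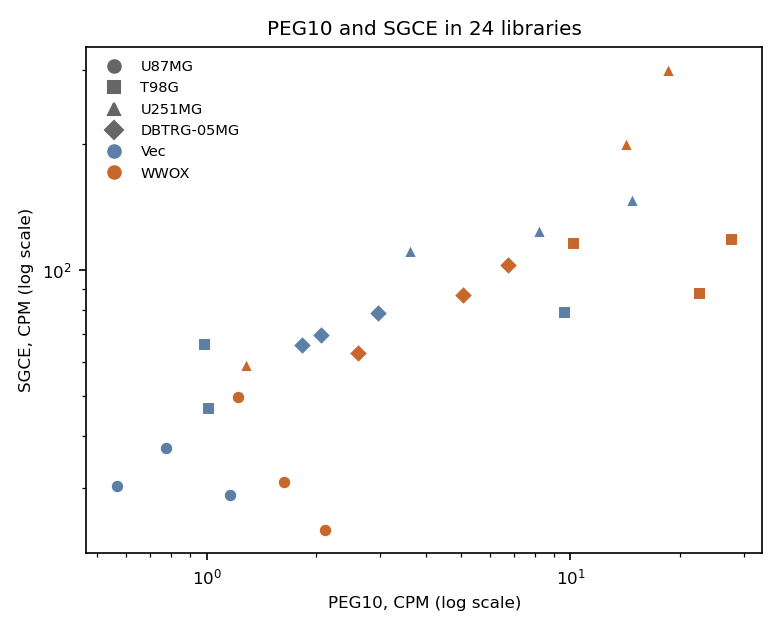
PEG10 against SGCE in CPM in the 24 libraries, both axes logarithmic. Shapes stand for lines, blue for “Vec”, and orange for “WWOX”. The U251MG “WWOX” libraries lie far apart, with 1.29 CPM of PEG10 and 59.3 CPM of SGCE in replicate 2 and 18.5 and 300.2 CPM in replicate 1.

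RTL5 (ENSG00000242732.4; chromosome X, 72127110 to 72131915, minus strand) encodes a Gag-like protein studied in microglia of mice, where it takes part in the innate response to viral RNA. It lies within the span of NHSL2 on the opposite strand. In U251MG it measured 0.892, 1.19, and 0.134 CPM in “Vec” and 5.56, 3.004, and 3.18 CPM in “WWOX”. All 3 “WWOX” libraries lay above all 3 “Vec” libraries, including the “WWOX” library in which PEG10 and WWOX were low. The means were 0.740 ± 0.546 and 3.91 ± 1.43 CPM (SD, n = 3), and log2FC was 1.88 with a standard error of 0.39 (limma adjusted p = 0.0362), another value taken as in view when the set was chosen. The call was lost without U251MG “Vec” replicate 3 (log2FC 1.46, adjusted p = 0.369), without U87MG “Vec” replicate 2, U87MG “WWOX” replicate 1 or 2, or T98G “Vec” replicate 1 (adjusted p = 0.0502 to 0.0545), in a model of U251MG alone (adjusted p = 0.998), with edgeR (adjusted p = 0.144), with limma-voom (adjusted p = 0.102), and with a pseudocount of 0.1 (adjusted p = 0.0895). It was kept with DESeq2 (adjusted p = 0.0138). Without U251MG “WWOX” replicate 1 no library reached 5 CPM and the gene was not tested.

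In T98G, RTL5 measured 1.48, 0.689, and 2.10 CPM in “Vec” and 3.72, 1.93, and 4.03 CPM in “WWOX” (log2FC 0.98, adjusted p = 0.299 from limma, and 0.61 without “Vec” replicate 2). The lowest “WWOX” library overlapped the highest “Vec” library. In DBTRG-05MG the order was the opposite, with 4.26, 2.51, and 4.68 CPM in “Vec” and 2.24, 3.30, and 1.44 CPM in “WWOX” (log2FC −0.67, adjusted p = 0.771), again with overlap. In U87MG RTL5 stayed between 0.0701 and 0.464 CPM, with at most 7 tags in a library. The 5 tested genes within 500 kb, PIN4, ERCC6L, RPS4X, CITED1, and PHKA1, were called in no line. The median log2FC of X-chromosome genes in U251MG exceeded that of all tested genes by 0.12.

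RTL6 (ENSG00000188636.4; chromosome 22, 44492583 to 44498233, minus strand), also studied in microglia, where it responds to bacterial lipopolysaccharide, was the steadiest of the 10 genes. It measured between 12.2 and 23.6 CPM in all 24 libraries. Its log2FC in “WWOX” lay between −0.23 and 0.08 in the 4 lines, and none was called. Its standard error, 0.21, was below the median of 0.32 over all genes tested. The log2FC of −0.23, that of U251MG, became −0.50 without “WWOX” replicate 2 and −0.08 without “WWOX” replicate 3.

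RTL8A (ENSG00000203950.7; chromosome X, 135050932 to 135052196, minus strand) and RTL8C (ENSG00000134590.14; chromosome X, 135032355 to 135033546, plus strand) are near neighbors that encode small Gag-like proteins. Of 3023 windows of 75 bases in the transcripts of RTL8A, 0 were found exactly in RTL8C and 43 in the third copy RTL8B, and of 2164 windows of RTL8C, 12 were found in RTL8B. How reads were divided among the 3 copies was not tested, so their counts are uncertain to that extent. RTL8A measured 127 to 367 CPM over the 24 libraries and RTL8C 75.4 to 295.1 CPM. The 2 neighbors did not vary together, with a Pearson r of 0.03 over the libraries. In T98G the means went from 246.9 ± 65.3 to 325.4 ± 61.7 CPM for RTL8A (log2FC 0.42) and from 135.6 ± 52.6 to 96.4 ± 18.3 CPM for RTL8C (log2FC −0.42). Without “Vec” replicate 2 these log2FC were 0.10 and −0.86, and without “Vec” replicate 1 they were 0.50 and −0.17. In U251MG the log2FC of RTL8A was 0.41 with all libraries, 0.07 without “WWOX” replicate 2, 0.85 without “WWOX” replicate 3, and 0.17 without “Vec” replicate 2. In U251MG RTL8C measured 159, 162, and 114 CPM in “Vec” and 146, 287, and 295.1 CPM in “WWOX” (log2FC 0.67, adjusted p = 0.592 from limma), where replicate 1 of “WWOX” lay within the “Vec” range and log2FC was 1.09 without it and 0.29 without “WWOX” replicate 2. In DBTRG-05MG the log2FC of RTL8C turned from negative to 0.13 without “WWOX” replicate 1. Neither gene, nor any of the other tested genes within 500 kb of them, was called in any line.

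RTL10 (ENSG00000215012.9; chromosome 22, 19846138 to 19854896, minus strand), which carries a BH3-like motif and overlaps GNB1L on the same strand, was at the edge of detection. It reached at most 1.12 CPM (17 tags) and held 3 tags or fewer in 9 libraries. In T98G it measured 0.352, 0.251, and 0.234 CPM in “Vec” and 0.558, 0.148, and 1.12 CPM in “WWOX”. The “WWOX” libraries lay on both sides of the “Vec” libraries, and differences of RTL10 were not tested.

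Among the PNMA genes, PNMA1 (ENSG00000176903.5; chromosome 14, 73711783 to 73714384, minus strand), the Ma1 antigen, measured 6.23 to 26.1 CPM. Its log2FC in “WWOX” lay between −0.36 and 0.38, and none was called. Its U251MG “WWOX” libraries, 26.1, 8.80, and 19.004 CPM, were spread on both sides of the “Vec” libraries, 11.4, 14.4, and 11.5 CPM. The log2FC of 0.38 in U251MG became 0.13 without “WWOX” replicate 1 and 0.59 without “WWOX” replicate 2. The −0.36 in DBTRG-05MG became −0.23 without “WWOX” replicate 1 and −0.50 without “Vec” replicate 2.

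PNMA2 (ENSG00000240694.9; chromosome 8, 26504701 to 26514092, minus strand), the Ma2 antigen, can form capsids that leave the cell, and its span overlaps BNIP3L and DPYSL2 on the other strand. Its log2FC was positive in all 4 lines, 0.55 in DBTRG-05MG, 0.60 in T98G, and 0.79 in both U87MG and U251MG, but it was called in none (adjusted p = 0.385 to 0.856 from limma). In U87MG it measured 12.1, 10.8, and 7.93 CPM in “Vec” and 21.7, 15.5, and 19.6 CPM in “WWOX”. In DBTRG-05MG it held 12.8, 18.1, and 13.6 CPM in “Vec” and 32.6, 19.4, and 18.5 CPM in “WWOX”. Neither line showed overlap in CPM, and in DBTRG-05MG log2FC was 0.34 without “WWOX” replicate 1. In T98G “Vec” replicate 2 (24.8 CPM, beside 16.2 and 11.6) lay within the “WWOX” libraries (21.8, 25.6, and 30.1 CPM). In U251MG “WWOX” replicate 2 (2.50 CPM, beside 14.5 and 9.81) lay under all “Vec” libraries (5.84, 3.501, and 2.88 CPM), and without it log2FC was 1.26 (adjusted p = 0.0350 from limma), while without “WWOX” replicate 1 it was 0.38.

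PNMA8A (ENSG00000182013.18; chromosome 19, 46466491 to 46471563, minus strand), another member of the family, marked the lines more than the variants. In U87MG it had 0 tags in all 6 libraries. In U251MG it measured 9.97, 16.6, and 10.6 CPM in “Vec” and 20.4, 5.72, and 20.7 CPM in “WWOX”, which is at least 56.7-fold and 73.0-fold higher than U87MG of the same variant, when 3 tags per library are taken for U87MG. In T98G the 3 “Vec” libraries held 0.844, 0.877, and 0.623 CPM and the 3 “WWOX” libraries 0.186, 0.148, and 0 CPM. Here “Vec” replicate 2 sided with its own variant, and the groups did not overlap. The sums were 34 and 4 tags, 7.78 times as many per total in “Vec” (exact 95% interval 2.77 to 30.2, counting error only), and log2FC was −1.12 (adjusted p = 0.0780 from limma). It was not called with edgeR (adjusted p = 0.0801) or limma-voom (adjusted p = 0.0614). Of 33 alternative settings 3 called it, DESeq2 (adjusted p = 0.0410), a pseudocount of 0.1 (adjusted p = 0.00598), and the omission of U251MG “WWOX” replicate 2 (adjusted p = 0.0212), and the highest adjusted p was 0.409, without T98G “WWOX” replicate 3. In DBTRG-05MG it measured 1.70, 0.773, and 2.57 CPM in “Vec” and 3.54, 4.15, and 2.54 CPM in “WWOX” (log2FC 0.85, adjusted p = 0.324). There log2FC was 0.54 without “Vec” replicate 2 and 1.09 without “Vec” replicate 3.

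ARC (ENSG00000198576.4; chromosome 8, 142611049 to 142614479, minus strand) is an immediate early gene of neurons, induced by synaptic activity, whose protein controls receptor traffic at synapses. In U87MG it measured 31.2, 16.7, and 20.1 CPM in “Vec” and 37.5, 42.4, and 63.1 CPM in “WWOX”. The groups did not overlap, and the means of 22.7 ± 7.62 and 47.7 ± 13.6 CPM (SD, n = 3) gave a log2FC of 1.01 that was not called (adjusted p = 0.531 from limma). In U251MG the “Vec” libraries held 2.76, 3.98, and 1.41 CPM and the “WWOX” libraries 2.61, 18.2, and 23.7 CPM. Replicate 1 of “WWOX” was thus at the level of “Vec”, although it was the U251MG library in which WWOX, PEG10, RTL5, and SGCE were highest, and the log2FC of 1.88 (adjusted p = 0.157 from limma, 0.00344 with DESeq2) was 2.87 without it (adjusted p = 0.000388), 1.29 without “WWOX” replicate 2, and 1.43 without “WWOX” replicate 3. In DBTRG-05MG the direction was the opposite, from 2.55, 2.90, and 3.62 CPM to 1.71, 1.23, and 0.822 CPM without overlap (log2FC −1.06, adjusted p = 0.696), and in T98G ARC stayed between 0.439 and 1.49 CPM (log2FC 0.21, and −0.12 without “Vec” replicate 2).

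**Figure D3:**
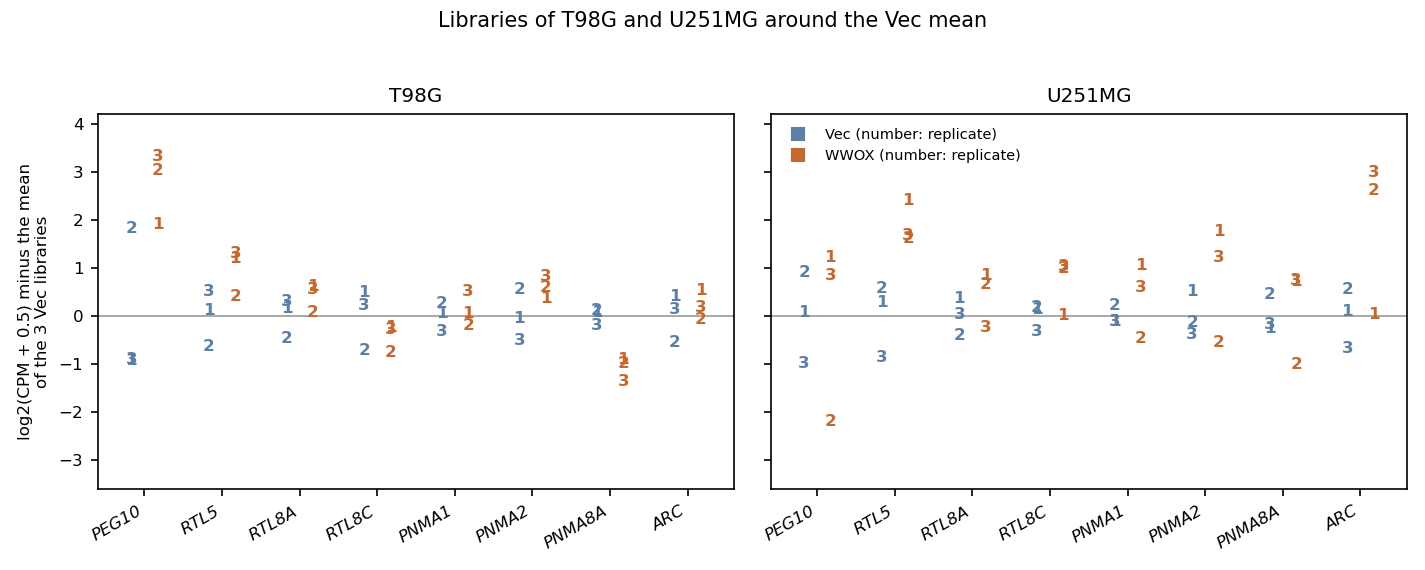
Each library of T98G and U251MG as log2(CPM + 0.5) minus the mean of the 3 “Vec” libraries of its line; numbers are replicates, blue “Vec” and orange “WWOX”. In T98G “Vec” replicate 2 lies with “WWOX” in PEG10 but with “Vec” in PNMA8A, and in U251MG “WWOX” replicates 1 and 2 lie on opposite sides in PEG10, PNMA1, PNMA2, and PNMA8A.

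Line by line, few of the 9 tested genes were called between “WWOX” and “Vec”. In U87MG 0 of 9 were called, against 3.20% of all genes tested (1.54% higher and 1.66% lower in “WWOX”), 1 of 9, PNMA2, had an unadjusted p under 0.05 (11.5% of all genes tested), and edgeR, limma-voom, and DESeq2 also called 0. In DBTRG-05MG 0 of 9 were called, against 1.02% (0.519% higher and 0.503% lower), 1 of 9, PNMA8A, had an unadjusted p under 0.05 (7.63%), and the same 3 tools called 0. In T98G 1 of 9 was called, against 1.14% (0.333% higher and 0.803% lower), and in U251MG 1 of 9, against 0.316% (0.114% higher and 0.203% lower). These are PEG10 and RTL5, the genes taken as having led to the choice of the set, so nothing is read from these counts.

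On the scaled values, the libraries of the 2 variants did not overlap in 3 of 9 genes in U87MG (RTL6, PNMA2, and ARC; 17.5% of all genes tested), 3 in T98G (PEG10, PNMA2, and PNMA8A; 16.2%), 1 in U251MG (RTL5; 10.4%), and 2 in DBTRG-05MG (PNMA8A and ARC; 19.7%). In CPM as deposited, PNMA2 in T98G, RTL6 in U87MG, and PNMA8A in DBTRG-05MG did overlap, while PEG10 in U87MG and PNMA2 in DBTRG-05MG did not. The 9 genes had a median log2FC of −0.03 in DBTRG-05MG, 0.01 in U87MG, 0.21 in T98G, and 0.41 in U251MG, while that of all genes tested lay between −0.04 and 0.00. Both signs occurred among the 9 genes in each line. In T98G PEG10 and PNMA8A were the 2 largest changes and had opposite signs.

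The libraries closest to the other variant bore on the counts as follows. Without U251MG “WWOX” replicate 2, 2 of 9 genes were called in T98G and 2 in U251MG. Without T98G “Vec” replicate 2, U251MG “Vec” replicate 2, U251MG “WWOX” replicate 3, or DBTRG-05MG “WWOX” replicate 1, the counts were 0 in U87MG and DBTRG-05MG and 1 in T98G and U251MG, as with all libraries. Without U251MG “WWOX” replicate 1 they were the same in number, but RTL5 was not tested and ARC was the gene called in U251MG.

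**Figure D4:**
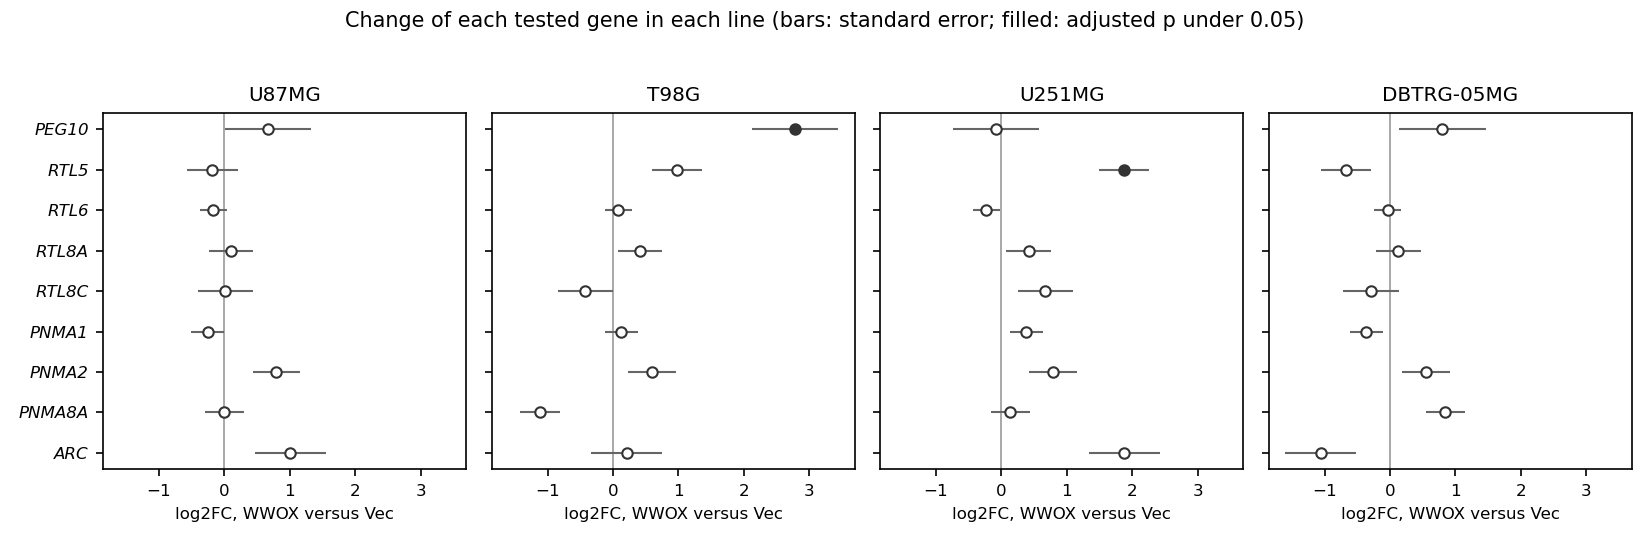
log2FC of “WWOX” versus “Vec” for the 9 tested genes in each line. Bars are standard errors, and filled circles have an adjusted p under 0.05 from limma: PEG10 in T98G at 2.79 and RTL5 in U251MG at 1.88. ARC lies right of 0 in U87MG and U251MG and left of 0 in DBTRG-05MG.

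Whether a change differed between lines was tested directly, as the log2FC of a line minus the mean of the other 3 lines. Among 36 such differences, 1 was called. PNMA8A in T98G differed by −1.44 (standard error 0.35, adjusted p = 0.0349 from limma), from a log2FC of −1.12 in T98G against 0.00, 0.14, and 0.85 in U87MG, U251MG, and DBTRG-05MG. It rests on 34 against 4 tags, on a line taken as in view, and on a scale in which U87MG, with 0 tags, counts as unchanged. No difference was called without U87MG “Vec” replicate 3, U87MG “WWOX” replicate 2, T98G “Vec” replicate 1 or 3, T98G “WWOX” replicate 2 or 3, U251MG “Vec” replicate 1 or 3, U251MG “WWOX” replicate 3, or DBTRG-05MG “WWOX” replicate 2, and 3 differences were called without T98G “Vec” replicate 2 or U251MG “WWOX” replicate 1. PEG10 in T98G differed by 2.33 (adjusted p = 0.158), RTL5 in U251MG by 1.84 (adjusted p = 0.0668), RTL5 in DBTRG-05MG by −1.56 (adjusted p = 0.129), and ARC in DBTRG-05MG by −2.09 (adjusted p = 0.162). None of these 4 was called, so the opposite signs of RTL5 and ARC in DBTRG-05MG are not shown to differ from the other lines. Of all genes tested, 2.39% were called in this way for U87MG, 1.54% for T98G, 0.422% for U251MG, and 0.982% for DBTRG-05MG.

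Calls between lines are given as a description, beside the share of all genes tested. The study grew T98G in MEM, U87MG and U251MG in EMEM, and DBTRG-05MG in RPMI medium. Line and medium therefore cannot be told apart, except between U87MG and U251MG. With U87MG “Vec” as reference, 4 of the 9 genes were called against T98G (39.8% of all genes tested), 5 against U251MG (38.6%), and 5 against DBTRG-05MG (44.1%). T98G “Vec” gave 2 against U251MG (32.4%) and 2 against DBTRG-05MG (41.2%), and U251MG gave 4 against DBTRG-05MG (31.6%). The members were thus called at 22 of 54 differences, a share near that of genes in general and so not a result about these genes. For PEG10 and RTL5 the “Vec” levels of T98G and U251MG are taken as having entered the choice of the set, and PNMA8A and RTL5 were tested only because of U251MG.

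ARC and PNMA8A had the widest range over the lines. The mean of ARC in “Vec” was 22.7 CPM in U87MG, 3.02 in DBTRG-05MG, 2.71 in U251MG, and 0.929 in T98G. U87MG was higher than DBTRG-05MG by 2.88, than U251MG by 3.05, and than T98G by 4.06 on the log2 scale (all called), and the 3 lower lines were not called against each other. PNMA8A ran from 12.4 CPM in U251MG over 1.68 in DBTRG-05MG and 0.781 in T98G to 0 in U87MG. All its pairs were called except T98G and DBTRG-05MG (log2 difference −0.54, adjusted p = 0.162 from limma).

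RTL5 and PEG10 had different orders. RTL5 was highest in DBTRG-05MG (3.81 CPM), then T98G (1.42), U251MG (0.740), and U87MG (0.320). DBTRG-05MG was called against all others and T98G against U87MG, while T98G and U251MG, and U251MG and U87MG, were not separated (adjusted p = 0.122 and 0.411 from limma). PEG10 ran from 8.87 CPM in U251MG over 3.86 in T98G and 2.29 in DBTRG-05MG to 0.833 in U87MG, and of its pairs only U251MG against U87MG was called (log2 difference 2.52, adjusted p = 0.00417). No neighboring pair in the order of PEG10 was called. The T98G mean rests on “Vec” replicate 2. Without it the mean was 0.998 CPM, under that of DBTRG-05MG, and U251MG was called against all 3 other lines (adjusted p = 0.00108 to 0.0318 from limma).

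PNMA1, PNMA2, and RTL6 each had 1 line apart from the rest. PNMA1 was highest in U87MG (19.2 CPM), above U251MG (12.4), DBTRG-05MG (10.3), and T98G (8.02) by 0.77, 1.09, and 1.23 on the log2 scale, all called. PNMA2 was lowest in U251MG (4.07 CPM), below U87MG (10.3), DBTRG-05MG (14.8), and T98G (17.5, or 13.9 without “Vec” replicate 2), all called, and those 3 were not separated. RTL6 was lowest in DBTRG-05MG (13.3 CPM), called against all others, which lay between 17.6 and 20.9 CPM. RTL8A (173.8 to 256.3 CPM) and RTL8C (135.6 to 178.0 CPM) were called in no pair of lines.

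The remaining genes of both families were mostly silent. Of 12 RTL genes on a list of the family, 8 were tested, the 5 above with RTL8B, LDOC1, and RTL3, and of 14 PNMA genes 4 were tested, the 3 above with MOAP1. RTL8B, the third copy of RTL8, measured 6.31 to 28.5 CPM, and LDOC1, another Gag-derived gene of the X chromosome, had group means from 11.1 CPM in U87MG “WWOX” to 251.9 CPM in U251MG “WWOX”. Apart from PEG10 in T98G and RTL5 in U251MG, 0 of the tested genes of the families were called by limma in any line, and DESeq2 added PNMA8A in T98G. Unadjusted p-values under 0.05 from limma numbered 0 to 3 of 8 per line in the RTL family and 1 or 2 of 4 in the PNMA family, counts that include the members described above, against 7.63% to 11.5% of all genes tested. RTL1, RTL4, RTL9, CCDC8, PNMA3, PNMA5, PNMA6A, PNMA6E, PNMA6F, and PNMA8B had group means of at most 0.10 CPM, below the level of 3 tags.

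Other lists, put together with earlier results of these libraries known, gave context. Their counts stand against a background of 0.316% of all genes tested called in U251MG, 1.02% in DBTRG-05MG, 1.14% in T98G, and 3.20% in U87MG. An unadjusted p under 0.05 from limma was held by 7.63% of all genes tested in DBTRG-05MG and by 11.5% in each other line. At these shares a count of 0 in a list of this length is near the background and is not a result about the list. A list of 22 genes of retroelement silencing held silencing factors, among them TRIM28, SETDB1, the HUSH genes MPHOSPH8, TASOR, and PPHLN1, and the DNA methyltransferases, and also TET1, TET2, and TET3, which act in the removal of DNA methylation. Of the 22, 20 were tested and 0 were called in any line, by limma, edgeR, limma-voom, or DESeq2. Unadjusted p-values under 0.05 from limma numbered 2 in U87MG and 1 in each other line. Their median log2FC was −0.30 in U251MG, −0.29 in U87MG, −0.03 in DBTRG-05MG, and −0.02 in T98G. In U251MG the 3 TET genes had log2FC of 0.55, 0.52, and 0.66, none of them called. Of 6 genes tied to the turnover of the PEG10 protein, such as UBE3A and the ubiquilin UBQLN2, 5 were tested and 0 were called in any line by any of the 4 tools, with 0 unadjusted p-values under 0.05. Of the 7 glial and the 1 other markers tested, 0 were called in any line by any of the 4 tools, and from limma the lone unadjusted p under 0.05 was that of SYP in U87MG.

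Imprinted genes are the class to which PEG10 belongs. Of 24 others on the list, 14 were tested, and 2 were called in U87MG (3.20% of all genes tested), 1 each in T98G (1.14%) and DBTRG-05MG (1.02%), and 0 in U251MG (0.316%). NDN, a growth-restraining MAGE gene of the Prader-Willi region, rose in U87MG from 1.22 to 29.5 CPM (log2FC 4.10, limma adjusted p = 4.02e-10) and in DBTRG-05MG from 11.2 to 29.7 CPM (log2FC 1.35, adjusted p = 0.00691), where edgeR called 0 of the 14. DIRAS3, a Ras-like growth suppressor, rose in U87MG (log2FC 1.77, adjusted p = 0.00576), and IGF2, a fetal growth factor, fell in T98G from 5.59 to 0.97 CPM (log2FC −1.98, adjusted p = 2.02e-05). DESeq2 called 3 of the 14 in U87MG, and in U251MG edgeR, limma-voom, and DESeq2 also called 0. Unadjusted p-values under 0.05 from limma numbered 4 in U87MG, 4 in T98G, and 1 in U251MG (11.5% of all genes tested in each). In DBTRG-05MG there was 1 (7.63%). PEG10 and these genes were not called in the same lines, apart from T98G, where PEG10 was higher and IGF2 lower.

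For ARC the list of immediate early genes was the natural companion. Of 19, 16 were tested, and only IER3, a survival factor, was called, in T98G (log2FC −5.63, adjusted p = 2.71e-06 from limma). Their median log2FC was 0.56 in U251MG, 0.32 in U87MG, −0.18 in DBTRG-05MG, and −0.20 in T98G. In the same order ARC had log2FC of 1.88, 1.01, −1.06, and 0.21, and 13, 11, 5, and 6 of the 16 genes had a positive log2FC. Members of either sign occurred in every line. In U87MG, where ARC had a log2FC of 1.01, FOS, a subunit of AP-1, had 2.27 and EGR1, a zinc finger factor, 1.22, while FOSL1 and JUN, also AP-1 subunits, had −0.89 and −0.60. In DBTRG-05MG, where ARC had −1.06, EGR1 had −2.04 and NR4A1, a nuclear receptor, 0.56. These 5 genes were picked after their values were seen, and none of their values was called. Apart from T98G, 0 of the 16 were called in a line by any of the 4 tools, with 5 unadjusted p-values under 0.05 from limma in U87MG (11.5% of all genes tested) and 2 each in U251MG (11.5%) and DBTRG-05MG (7.63%).

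The genes whose scaled log2 values ran closest to each member over the 24 libraries were taken as a description. For PEG10 these were ANKRD49 (Pearson r = 0.87), SPIDR (0.83), and RYBP (0.81), none of them on chromosome 7. For RTL5 they were BCAN-AS2 (0.90), FAM166C (0.84), and FKBP9 (0.83). PNMA8A ran closest to CNR1, the cannabinoid receptor (0.97), ZFHX4-AS1 (0.96), and WSCD1 (0.96), and ARC to HRK (0.94), SPHK1 (0.93), and SPATA5L1 (0.93). For the others the closest were KLHDC4 (0.93) for RTL6, NIT1 (0.88) for RTL8A, NEURL3 (0.84) for RTL8C, IRX3 (0.90) for PNMA1, and FGFR1OP2 (0.87) for PNMA2. Among the members themselves the highest r was 0.73, between ARC and PNMA1, both with their highest “Vec” mean in U87MG. The lowest was −0.65, between PNMA2 and PNMA8A, of which PNMA2 had its lowest and PNMA8A its highest “Vec” mean in U251MG. All of these values share lines and libraries, and r within lines was not computed.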

How the data were processed

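Per the labels and the study's methods, total RNA of the 24 cultures was cap-trapped and sequenced as CAGE libraries, reads were aligned to hg38 with STAR, and SAMtools and limma 3.42 are named in the submitters' processing notes. The authors deposited tags per gene as CPM summing to 1000000 per library. All values came out as whole tags (100% within 0.01 tag), and 43033 of 43037 identifiers were matched to symbols. The counting annotation and use of strand are not given in the sources used here. Columns of other samples numbered 0.

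Unweighted TMM scaling trimmed 30% of M and 5% of A, 0.5 was added before log2, and genes reaching 5 CPM in any library entered a limma model (trend, 8 groups). Count tests on the recovered tags (edgeR, limma-voom, DESeq2), other pseudocounts, filters, and scalings, a model per line, the replicate number as a block, and each library left out were alternatives. The limma procedure was run on simulated data for the DBTRG-05MG contrast alone, without differences between lines. That run does not bear on the calls in T98G and U251MG. The members and the lists were chosen with earlier results of these data known. Named genes were the 10 members, family and PEG10 turnover genes past the threshold, of other lists the 3 smallest adjusted p-values per line among genes past the threshold, tested genes within 500 kb of PEG10, RTL5, RTL8A, or RTL8C, and the 3 closest genes by Pearson r; other list members and markers named as examples fall outside this rule and were chosen with their values seen. Neighbors and positions follow GENCODE on hg38. Tools were Python 3.11.15 (biopython 1.88, matplotlib 3.10.9, scipy 1.17.1, pandas 2.3.3, numpy 2.4.6) and, under R 4.3.3, DESeq2 1.42.0, edgeR 4.0.16, and limma 3.58.1.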

Additional observations from a re-analysis of the deposited data

Results flagged for a closer look

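PNMA8A in T98G is listed because its change passed the test of its difference from the other lines, which is no independent support, since T98G is taken as in view when the genes were chosen, the gene was tested only through the U251MG libraries, and U87MG held 0 tags. Its log2FC minus the mean of the other 3 lines was −1.44 (standard error 0.35, adjusted p = 0.0349 from limma), and the “Vec” and “WWOX” libraries of T98G did not overlap (0.623 to 0.877 against 0 to 0.186 CPM). It rests on 34 and 4 tags. No such difference was called among the 9 genes with a pseudocount of 1, without the filter, with CPM as deposited, with edgeR, with the replicate number as a block, or without 10 of the 24 libraries in turn. With a mean of at least 5 CPM as the filter, PNMA8A was not tested.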

How the results depend on the processing

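The counts of 0 called genes in U87MG and DBTRG-05MG were the same under all 11 other settings and without any 1 of the 24 libraries. In T98G, 1 of 9 became 2 with a pseudocount of 0.1 and with DESeq2, and 0 without the filter, with a mean of at least 5 CPM, with CPM as deposited, in a separate model, with edgeR, and with limma-voom, and it ran from 0 to 2 with 1 library left out. In U251MG, 1 became 0 with a pseudocount of 0.1, with a mean of at least 5 CPM (where RTL5 is not tested), in a separate model, with edgeR, and with limma-voom, and 2 with DESeq2, and it ran from 0 to 2 with 1 library left out. The 22 differences between lines became 13 with a mean of at least 5 CPM and ran from 19 to 25 with 1 library left out. The 1 difference of a line from the others became 0 with a pseudocount of 1, without the filter, with a mean of at least 5 CPM (where PNMA8A is not tested), with CPM as deposited, and with edgeR, and 3 with DESeq2, and it ran from 0 to 3 with 1 library left out. Except where a smaller set of genes was tested, the cause was not tested.

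For “Vec” and “WWOX” libraries of the same replicate number, r of their deviations was over 0.1 in 4 of 12 pairs (−0.55 to 0.51). Libraries of different numbers were not compared, so whether the numbers pair the samples is not decided. With the replicate number as a block, 0 genes were called in T98G (PEG10 adjusted p = 0.0947 from limma) and 0 differences of a line from the others, and genes called among all went from 395 to 307, 140 to 63, 39 to 23, and 126 to 76 in U87MG, T98G, U251MG, and DBTRG-05MG.

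The sign turned in 10 of the log2FC, none of them called. For PEG10 in U251MG log2FC was 0.23 with edgeR, 0.025 with limma-voom, and 0.20 with DESeq2, and −0.64 to 0.80 with 1 library left out. For RTL8C in U87MG it was −0.030 with edgeR and −0.037 with DESeq2, and −0.28 to 0.17 with 1 library left out. For RTL6 in DBTRG-05MG it was 0.032 with CPM as deposited. With 1 library left out it ran from −0.030 to 0.18 for RTL6 in T98G, from −0.13 to 0.22 for RTL8A in U87MG, from −0.0023 to 0.30 for RTL8A in DBTRG-05MG, from −0.66 to 0.13 for RTL8C in DBTRG-05MG, from −0.044 to 0.29 for PNMA1 in T98G, from −0.067 to 0.50 for PNMA8A in U251MG, and from −0.12 to 0.42 for ARC in T98G.

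Over all genes tested, the settings other than leaving out a library gave 186 to 618 calls in U87MG, 11 to 273 in T98G, 2 to 162 in U251MG, and 49 to 395 in DBTRG-05MG. With 1 library left out the ranges were 253 to 491, 45 to 394, 13 to 557, and 74 to 149. Depth limits RTL10, with 3 tags or fewer in 9 libraries, and PNMA8A in T98G “WWOX”, with 4 tags in all.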
